A study of Mus musculus with 4 samples.

Results

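The caspase genes Casp1, Casp2, Casp4, Casp6, Casp8 and Casp9 were examined in irradiated LSK cells (Lin-Sca-1+c-Kit+), the sorted marrow fraction in which haematopoietic stem cells and early progenitors are enriched. They were taken by gene symbol: each probe set whose platform annotation gave 1 symbol equal to a member was kept, which gave 9 of the 45101 probe sets and 6 of the 18194 genes with a named probe set. The probe set of highest mean log2 signal stood for its gene. The arrays form a pair of groups with n = 2 in each: the necdin null group held LSK cells of mice whose marrow had been rebuilt with necdin null fetal liver cells, and the wild type group held those of mice given wild type fetal liver cells. All the samples are labelled as C57BL/6 and as bone marrow, and all the mice in both groups had received 6.5 Gy before the sort, so each comparison is between irradiated cells. The necdin allele, the cells of the host that may have remained, the time after irradiation and the number of mice behind each array are not given in the sources used here. Every p-value therefore reflects the spread among these arrays alone, over other genes as well as the gene itself. Part of that spread may be technical.

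Caspases are cysteine proteases that cut their substrates after aspartate and lie in the cell as inactive zymogens. Initiator caspases are activated when adaptor proteins bring them together: caspase-2 in the PIDDosome, caspase-8 at death receptors and caspase-9 on the apoptosome. They pass the signal to executioner caspases, which dismantle the cell. Inflammatory caspases instead mature interleukins and cut the pore-forming protein gasdermin D. DNA damage in blood progenitors is a classic trigger of the mitochondrial route to caspase-9. Messenger RNA levels tell nothing about whether the zymogens were activated.

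The median signal of an array was 53.7 to 63.2. The targeted gene Ndn read 55.4 and 105 on the necdin null arrays, against 253 and 255 on the wild type arrays for its main probe set, so both necdin null arrays lay below both wild type arrays. Of its 7 other probe sets, the 4 above the filter read 0.721 to 17.6 on the necdin null arrays, against 103 to 559 on the wild type arrays. These 4 passed the filter through their wild type signals alone, so keeping them favours a gap. Of those below the filter, 1438978_x_at also had both necdin null arrays lower (log2 difference, necdin null minus wild type, -1.68). The groups overlapped for 1438939_x_at (-1.10) and for 1456575_at, which went the other way (1.02). Which part of Ndn was deleted is unknown here, and a probe set outside it would check nothing. The 3' Gapdh signal was far above the 5' signal on every array. Their ratio was 15.8 on necdin null replicate 2, against 9.96 to 11.7 on the other 3 arrays. For actin the ratio was 9.21 and 14.5 on the necdin null arrays, against 9.97 and 12.4 on the wild type arrays. The top 1% of probe sets held 37.4% of the signal on necdin null replicate 2, against 29.0% to 30.6% on the others. What this does to each probe set was not tested. The X-linked Xist read 4841 and 76.8 on the necdin null arrays, against 9930 and 7182 on the wild type arrays, so necdin null replicate 2 was the low one. The Y-linked Eif2s3y read 2273 and 2987 on the necdin null arrays, against 32.6 and 1974 on the wild type arrays, so wild type replicate 1 was the low one. By these genes the sex of the cells was not alike on all arrays, and its part in the comparison was not tested. Of the LSK markers, Kit (the c-Kit of the sort) had 6049 and 3744 on the necdin null arrays, against 6617 and 3976 on the wild type arrays. The gene of Sca-1 was not analysed here. Of 6 T and NK lineage markers, 5 lay below the filter on low values, Cd3d, Cd3e, Cd3g, Cd4 and Ncr1 (mean log2 value under 5.09, a signal of about 30.3). Neutrophil markers had summed signals of 101984 and 210052 on the necdin null arrays, against 78297 and 145445 on the wild type arrays. The sum mostly reflects its brightest genes. Single markers ranged from S100a8, at 14736 to 55148 over the arrays, to Cxcr2, which read 27.3 on wild type replicate 1, below the level of the filter.

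**Figure D1:**
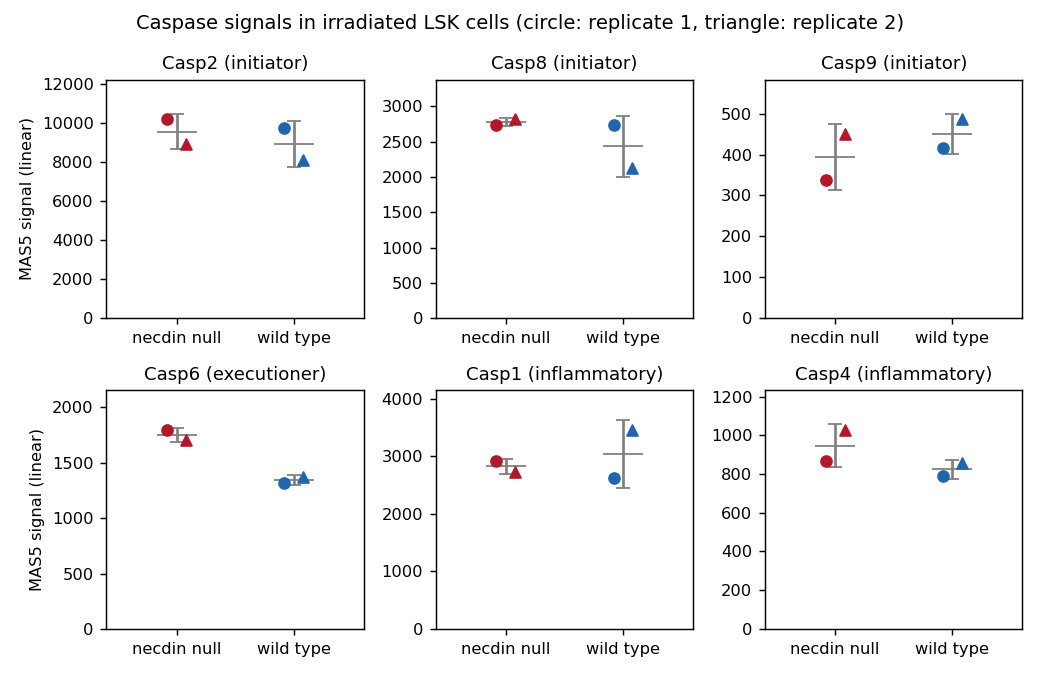
MAS5 signal (linear, from 0) of the main probe set of each caspase gene on the 2 necdin null arrays (left, red) and the 2 wild type arrays (right, blue), with the group mean and SD in grey. The groups are apart for Casp6 (1794 and 1709.5 against 1314 and 1374) and narrowly for Casp4 (867 and 1027 against 789 and 859), and they overlap for the other 4 genes.

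All 6 caspase genes gave signals above the filter in both groups, so each was tested. Across probe sets a signal depends on the probes as well as on the transcript, so classes are described by where their signals fell among all probe sets of an array, and this is no order of transcript amounts. The 3 initiator caspases spanned the 73.3rd to the 98.2nd percentile: Casp2 lay at the 97.7th to 98.2nd on the 4 arrays, Casp8 at the 91.7th to 93.5th and Casp9 at the 73.3rd to 77.1st. The executioner Casp6 lay at the 87.6th to 90.3rd. The inflammatory caspases spanned the 82.5th to the 94.6th percentile, with Casp1 at the 92.9th to 94.6th and Casp4 at the 82.5th to 85.9th. The inflammatory pair thus fell inside the span of the initiators, and all 6 main probe sets lay above the level of the filter on each array.

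Across the 4 arrays the caspases varied less than most genes tested, but not far from genes of like level. The distance between the highest and the lowest array ran from 0.33 on the log2 scale for Casp2 to 0.52 for Casp9, with a median of 0.40 over the 6 genes. The median was 0.64 over all 12680 genes tested and 0.47 over the 6327 genes whose mean level lay within the span of the caspases.

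No caspase of the 6 differed past the threshold when necdin null cells were set against wild type cells (limma, adjusted p = 0.999 for each, adjusted over all genes; threshold 0.05), and neither did any other gene (0 of 12680, 0%). At an unadjusted p under 0.05 there were 0 of 6 caspases and 383 of 12680 genes (3.02%). The differences, necdin null minus wild type on the log2 scale, were above 0 for Casp6, Casp8, Casp4 and Casp2 and below 0 for Casp9 and Casp1. That is 4 of 6 above 0, beside 45.9% of all genes tested. Their median was 0.15, beside -0.03 over all genes tested. The groups did not overlap for 2 of the 6 caspases, Casp6 and Casp4, where 30.5% of all genes tested had groups apart, so this share is near the background. Both had the necdin null arrays above the wild type arrays, the case for 12.8% of all genes tested, and 0 of 6 were lower with groups apart, the case for 17.7%.

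**Figure D2:**
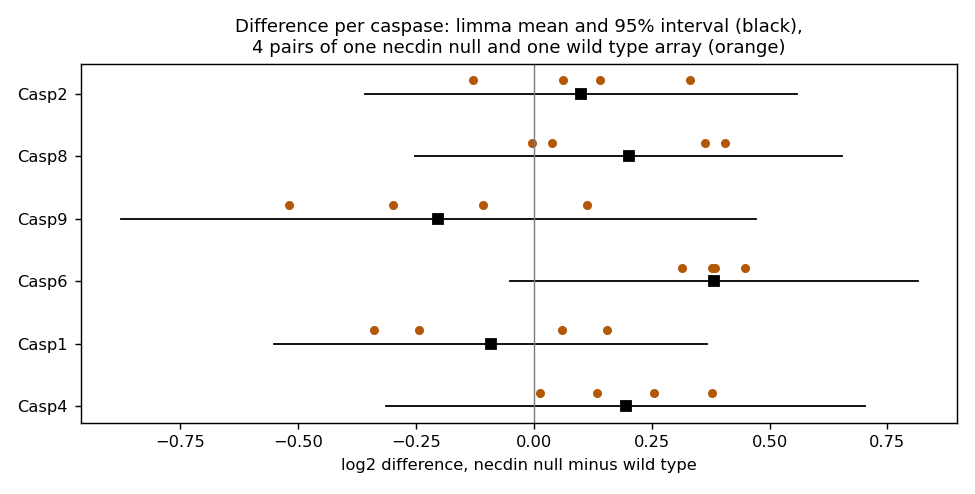
Log2 difference, necdin null minus wild type, for each caspase gene (x axis): the black square is the limma estimate, the black line its 95% interval, and the 4 orange points are the differences between single necdin null and single wild type arrays. All 4 points lie above 0 for Casp6 (0.31 to 0.45) and Casp4 (0.01 to 0.38), and every interval includes 0.

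Casp6 encodes the executioner caspase best known for cutting nuclear lamin A. Its main probe set, 1415995_at, read 1794 and 1709.5 on the necdin null arrays, against 1314 and 1374 on the wild type arrays. Both necdin null arrays were above both wild type arrays, and the replicates of each group lay close together. The means were 1752 ± 60.1 in necdin null cells and 1344 ± 42.4 in wild type cells (SD, n = 2 each). This is a 1.30-fold difference, or 0.38 on the log2 scale with a standard error of 0.19 and a 95% interval of -0.05 to 0.81. The gaps between replicates were 0.070 and 0.064 on that scale, so the standard error rests largely on the spread of other genes of like level. Casp6 had the smallest p of the 6 caspases (limma unadjusted p = 0.077, adjusted p = 0.999), a p that 656 of 12680 genes (5.17%) equalled or undercut. The difference between single arrays ran from 0.31 to 0.45 over the 4 pairings of a necdin null with a wild type array. With 2 arrays a group, the smallest two-sided p of an exact permutation test is 0.333.

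A second Casp6 probe set, 1458715_at, was dimmer, with 91.6 and 36.2 on the necdin null arrays, against 59.3 and 19.9 on the wild type arrays. Its groups overlapped, and both replicate 2 arrays were below both replicate 1 arrays. Its difference of 0.67 had a standard error of 0.76 when every probe set above the filter was tested.

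Promoter windows from 250 bases before to 50 bases after the start in RefSeq (GRCm38.p6) are shown for Casp6 and Casp9, the members with more than 1 probe set, and for the neighbouring inflammatory genes Casp1 and Casp4. Capitals mark GC boxes (GGGCGG, the recognition letters of SP1-type factors, on either strand).
Casp6 (chr3:129901165-129901464, + strand): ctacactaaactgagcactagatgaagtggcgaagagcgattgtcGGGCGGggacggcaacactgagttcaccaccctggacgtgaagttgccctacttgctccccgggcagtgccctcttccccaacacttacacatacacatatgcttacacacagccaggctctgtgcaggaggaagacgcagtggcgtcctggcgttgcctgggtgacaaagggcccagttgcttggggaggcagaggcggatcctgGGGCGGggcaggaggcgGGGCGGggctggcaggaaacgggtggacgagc
Casp9 (chr4:141793362-141793661, + strand): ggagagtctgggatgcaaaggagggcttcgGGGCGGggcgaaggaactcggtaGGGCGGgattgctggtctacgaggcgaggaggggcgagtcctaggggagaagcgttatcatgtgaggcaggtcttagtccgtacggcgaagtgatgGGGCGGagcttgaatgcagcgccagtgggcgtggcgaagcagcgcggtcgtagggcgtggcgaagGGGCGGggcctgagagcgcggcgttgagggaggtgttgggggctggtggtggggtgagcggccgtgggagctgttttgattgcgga
Casp1 (chr9:5298267-5298566, + strand): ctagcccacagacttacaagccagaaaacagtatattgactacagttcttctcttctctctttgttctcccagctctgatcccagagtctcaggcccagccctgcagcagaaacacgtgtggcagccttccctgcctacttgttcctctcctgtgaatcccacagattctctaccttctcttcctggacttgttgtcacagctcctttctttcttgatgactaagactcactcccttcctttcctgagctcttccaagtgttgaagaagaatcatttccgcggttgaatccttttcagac
Casp4 (chr9:5308599-5308898, + strand): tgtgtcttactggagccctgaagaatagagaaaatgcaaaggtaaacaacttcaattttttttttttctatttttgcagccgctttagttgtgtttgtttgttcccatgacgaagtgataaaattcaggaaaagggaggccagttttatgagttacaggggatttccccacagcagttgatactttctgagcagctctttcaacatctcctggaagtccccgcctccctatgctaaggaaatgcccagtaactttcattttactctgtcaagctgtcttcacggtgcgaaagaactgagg

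The Casp6 window holds 3 GC boxes, 2 of them just after the start, and the Casp9 window holds 4. The Casp2 window, not printed, holds 2. The windows of Casp1, Casp4 and Casp8 hold 0, where 35.9% of 32544 windows of this length in the table hold at least 1. The windows with GC boxes were also those richer in G and C, with 62.0% for Casp6, 66.0% for Casp9 and 63.7% for Casp2, against 48.0% for Casp1, 42.0% for Casp4 and 42.0% for Casp8, where the median window has 53%. None of the 6 genes had a TATA box (TATAAA, in 13.6% of windows) or a consensus p53 half-site (8.36%) on either strand of its window. The motifs were matched letter by letter and may overlap one another. For Casp4 the table has 2 starts, and its other window gave the same motif counts.

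Casp9 encodes the initiator that the apoptosome activates. Its main probe set, 1437537_at, read 338 and 450.4 on the necdin null arrays, against 416 and 486 on the wild type arrays. The groups overlapped, and necdin null replicate 1 was the lowest of the 4. The means were 394 ± 79.6 in necdin null cells and 451 ± 49.1 in wild type cells (SD, n = 2 each), a difference of -0.20 with a standard error of 0.30 and a 95% interval of -0.88 to 0.47. Without necdin null replicate 1 the difference was 0.0022, so its sign rests on that array.

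The other Casp9 probe sets had mean log2 values below the filter. Probe set 1426125_a_at, whose suffix marks a design meant to match several transcripts of 1 gene, read 3.73 and 4.81 on the necdin null arrays, against 45.7 and 66.6 on the wild type arrays. The necdin null signals lay at the 9.67th and 12.2nd percentile of their arrays and the wild type signals at the 47.1st and 50.9th, so the necdin null signals were near the floor and the wild type signals near the middle of the array, above the level of the filter. Which transcripts its probes match was not checked here, and no fold is given against signals at the pseudocount. With every probe set tested and no filter, a setting chosen after seeing the data, it did not pass (limma unadjusted p = 0.0070, adjusted p = 0.995). Neither did any other of the 45101 probe sets (0%), of which 1859 had an unadjusted p under 0.05. Groups were apart for 32% of all probe sets in that setting. The third probe set, 1457816_at, read 11.9 and 7.30 on the necdin null arrays, against 8.42 and 17.9 on the wild type arrays, with groups that overlapped. All 4 of its signals were below the level of the filter.

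**Figure D3:**
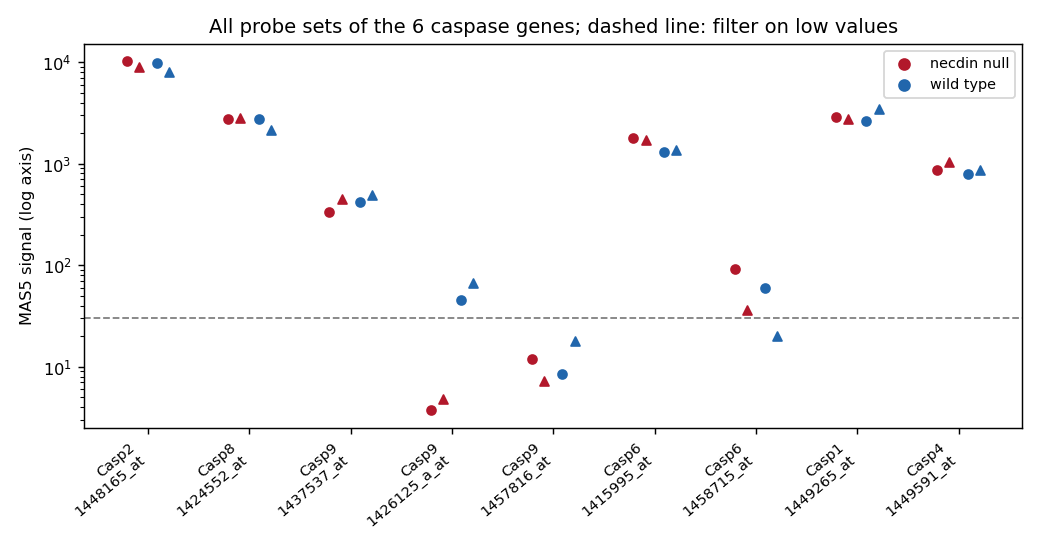
MAS5 signal (log axis) of all 9 probe sets of the 6 caspase genes on each array, with necdin null arrays in red left of wild type arrays in blue (circle, replicate 1; triangle, replicate 2) and the filter on low values, a signal of about 30.3, as a dashed line. Casp9 probe set 1426125_a_at is the one with the widest gap between the groups, 3.73 and 4.81 in the necdin null samples, against 45.7 and 66.6 in the wild type samples.

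Casp8 encodes the initiator at death receptors, which also restrains necroptosis. It read 2732 and 2813 on the necdin null arrays, against 2740.05 and 2122 on the wild type arrays. Wild type replicate 2 was low and the other 3 arrays lay together, so the groups overlapped. The means were 2773 ± 57.3 in necdin null cells and 2431 ± 437 in wild type cells (SD, n = 2 each), a difference of 0.20 with a standard error of 0.20 and a 95% interval of -0.25 to 0.65. Without wild type replicate 2 it was 0.02.

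Casp2 encodes the initiator of the PIDDosome, which answers to DNA damage and surplus centrosomes. It read 10169 and 8912 on the necdin null arrays, against 9747 and 8087 on the wild type arrays. The groups interleaved, with the replicate 1 array the brighter in each. The means were 9540.3 ± 889 in necdin null cells and 8917 ± 1174 in wild type cells (SD, n = 2 each), a difference of 0.10 with a standard error of 0.20 and a 95% interval of -0.36 to 0.56. Without wild type replicate 2 the difference was -0.034. It was 0.02 with median centring, 0.02 with quantile normalization and 0.03 with cyclic loess.

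Casp1 and Casp4 are neighbours on chromosome 9 in the RefSeq table, and Casp12 follows Casp4. Casp1 encodes the protease of canonical inflammasomes, which matures interleukin-1 beta and interleukin-18. It read 2915 and 2729 on the necdin null arrays, against 2617 and 3453 on the wild type arrays. Both necdin null arrays lay between the wild type arrays. The means were 2822 ± 131 in necdin null cells and 3035 ± 591 in wild type cells (SD, n = 2 each), a difference of -0.09 with a standard error of 0.20 and a 95% interval of -0.55 to 0.37. Without wild type replicate 2 it was 0.11, and with median centring -0.17.

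Casp4 encodes the mouse protease that senses cytosolic lipopolysaccharide and opens gasdermin D pores. It read 867 and 1027 on the necdin null arrays, against 789 and 859 on the wild type arrays. The groups were apart by a narrow margin, since necdin null replicate 1 exceeded wild type replicate 2 by 0.01 on the log2 scale. The means were 947 ± 113 in necdin null cells and 824 ± 49.5 in wild type cells (SD, n = 2 each), a difference of 0.19 with a standard error of 0.22 and a 95% interval of -0.31 to 0.70.

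The inflammatory caspases are strongly expressed in myeloid cells, so myeloid markers are given beside them. The neutrophil list holds the primary granule genes Mpo, Elane, Prtn3 and Ctsg beside later genes, so its sum does not measure mature cells alone. All 12 neutrophil markers were on the array and above the filter. Their differences were all above 0, with a median of 0.52, and 0 of 12 passed the test. The groups were apart for 3 of the 12 (25%, beside 30.5% of all genes tested), each higher in necdin null cells. In summed signal, given above, the groups overlapped, and replicate 2 was the brighter array in each. The brightest neutrophil sum and the highest Casp4 signal fell on the same array, necdin null replicate 2, while Casp1 was highest on wild type replicate 2. Of 10 monocyte and macrophage markers 9 were on the array and 7 above the filter, and Itgam and Marco were below it. Their summed signals were 9006 and 15865 on the necdin null arrays, against 7312 and 13353 on the wild type arrays, which overlapped. Dendritic markers, all 7 above the filter, summed to 10759 and 9053 on the necdin null arrays, against 12654 and 12479 on the wild type arrays, so the groups were apart in the sum, while 0 of the 7 markers had groups apart on their own. Of these markers, 1 had a difference above 0 and 6 below, and Flt3 is also among the LSK markers. The part of these cells in the Casp1 and Casp4 values was not tested. In bulk samples more cells of a type and more RNA per cell cannot be told apart.

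The profiles of the caspases over the 4 arrays were set beside each other as log2 values centred on each gene's mean. Casp2 and Casp8 were the closest pair, at a root mean square distance of 0.10, and Casp9 and Casp6 the farthest, at 0.34. Among the 12674 other genes, the nearest profile was that of Tcf25 for Casp2 (0.0078), Nudt7 for Casp8 (0.011), Zfp248 for Casp4 (0.013), Rrp12 for Casp1 (0.016), Pdcd11 for Casp9 (0.021) and Fundc2 for Casp6 (0.029). With 4 arrays such likeness is common: 731 genes lay within 0.1 of Casp4 and 175 within 0.1 of Casp6.

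The other genes of the caspase pathways were counted by role. Of 49 listed, 43 were on the array by name and 42 above the filter. None of the 42 passed the test in either direction (limma, smallest unadjusted p = 0.14), and 0 had an unadjusted p under 0.05. There were 25 with a difference above 0 and 17 below, with a median of 0.05. With each array centred on its median these were 17 above and 25 below, so the balance moved with the scaling, and over all genes tested it went to 4534 above and 8146 below under that scaling, against 5824 and 6856 without it. The groups were apart for 11 of 42 (26.2%), beside 30.5% of all genes tested.

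**Figure D4:**
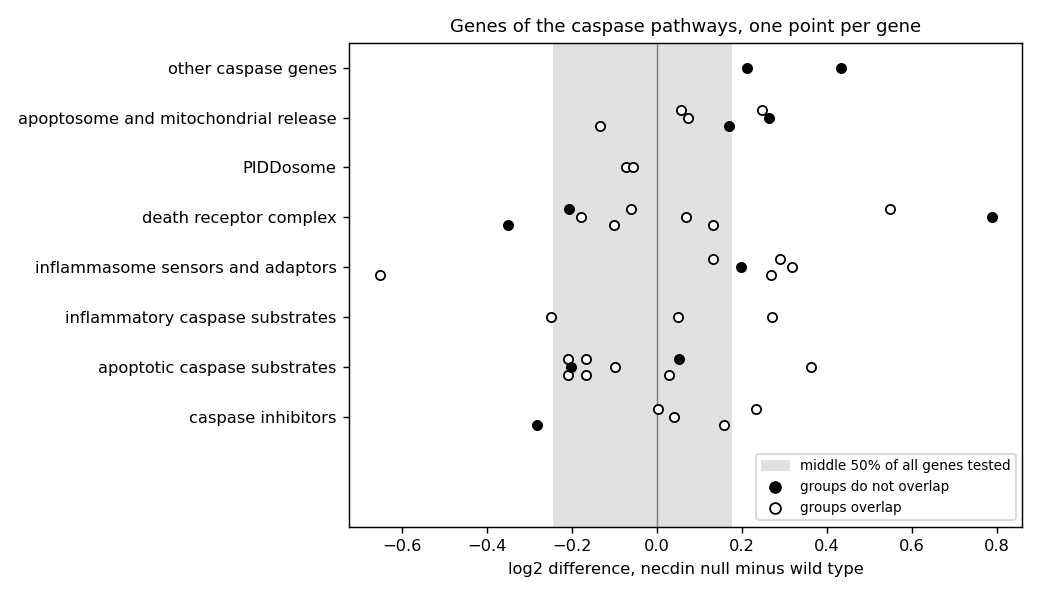
Log2 difference, necdin null minus wild type, for the 42 pathway genes tested, one point per gene by role, filled where the groups do not overlap (11 genes). The grey band runs from the first to the third quartile of all genes tested (-0.24 to 0.17), and most points lie in or near it.

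Of the other caspase genes, Casp12, the neighbour of Casp4 with a disputed role in inflammation and endoplasmic reticulum stress, read 752 and 623 on the necdin null arrays, against 579 and 443 on the wild type arrays. The groups were apart, with a difference of 0.43 and a standard error of 0.27. Its other probe set, 1418981_at, did not share this gap, at 486 and 434 in the necdin null samples, against 410 and 537 in the wild type samples (-0.03). Casp14, the caspase of cornifying skin, had 323 and 256 in the necdin null samples, against 254 and 242 in the wild type samples (0.21, standard error 0.34; 0.13 with median centring), while its second probe set read 5.95 at most.

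Around caspase-9, 5 of the 6 genes of the apoptosome and of mitochondrial release had differences above 0 (3 of 6 with median centring), and 0 passed. Apaf1, the scaffold of the apoptosome, read 1325 and 1532 on the necdin null arrays, against 1213 and 1161 on the wild type arrays. The groups were apart, with a difference of 0.26 and a standard error of 0.20. Its dimmer probe set 1450223_at went the other way, with overlapping groups (-0.50). It read 105 and 39.0 in the necdin null samples, against 95.2 and 90.8 in the wild type samples. Cycs, the cytochrome c that binds Apaf1, had overlapping groups and a difference of 0.25 with a standard error of 0.24, which was 0.05 with quantile normalization. Upstream of caspase-2, the PIDDosome genes Pidd1 (-0.07, standard error 0.46; -0.15 with median centring) and Cradd (-0.06, standard error 0.48; -0.14 with median centring) were dim, at 92.4 to 168 on all arrays.

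In the death receptor list around caspase-8, 4 of 9 genes had differences above 0 and 5 below, and 0 passed. The 9 include Ripk3 and Mlkl of necroptosis, which do not lie upstream of caspase-8. Fadd, the adaptor that recruits caspase-8, read 521 and 545 on the necdin null arrays, against 563 and 822 on the wild type arrays. Both necdin null arrays were below both wild type arrays, with a difference of -0.35 and a standard error of 0.27. Fas, a death receptor and p53 target, read 44.6 and 74.4 in the necdin null samples, against 35.4 and 28.6 in the wild type samples, near the filter, with a difference of 0.79 and a standard error of 0.62. Cflar, the inactive caspase-8 relative that blocks its activation, is the neighbour of Casp8 on chromosome 1. It had 0.07 (-0.01 with median centring) with a standard error of 0.26. Of its dimmer probe sets, 1449317_at (-0.32) and 1453482_at (-0.27) had both necdin null arrays below both wild type arrays. The groups overlapped for 1425686_at (0.12) and 1425687_at (-0.08).

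Around caspase-1, 5 of 6 inflammasome sensors and adaptors had differences above 0, and 0 passed. Pycard, the adaptor ASC that links sensors to caspase-1, read 6269.7 and 9023 on the necdin null arrays, against 6326 and 5981 on the wild type arrays. The groups overlapped, necdin null replicate 2 being the high one, with a difference of 0.29 and a standard error of 0.22. Mefv, the sensor pyrin, had -0.65 with a standard error of 0.52. Among the substrates, gasdermin D (Gsdmd) had -0.25 with a standard error of 0.29, Il1b 0.27 with a standard error of 0.72 and Il18 0.05 (-0.03 with median centring) with a standard error of 0.24, each with overlapping groups.

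Of 9 substrates of apoptotic caspases 3 had differences above 0 (1 with median centring) and 6 below, and 0 passed. Bid, which caspase-8 cuts to reach the mitochondria, had 0.36 with a standard error of 0.30. Lmnb1, the lamin B1 of the nuclear envelope, had -0.20 with a standard error of 0.22. The dimmer Lmnb1 probe set 1423520_at went the other way, with overlapping groups (0.16). Of 5 inhibitors, 4 had differences above 0 (2 with median centring), and 0 passed. The ubiquitin ligases Birc2 and Birc3 had -0.28 and 0.23, with standard errors of 0.19 and 0.21, and the Birc3 value was 0.15 with median centring. Birc2 read 1558 and 1768 in the necdin null samples, against 1976 and 2067 in the wild type samples, so its groups were apart. The inhibitor Xiap had 0.04 (-0.04 with median centring). Its probe set 1456088_at read 602 and 430 in the necdin null samples, against 225 and 343 in the wild type samples, with groups apart. Tested with every probe set above the filter, it had 0.87 with a standard error of 0.34 (limma unadjusted p = 0.035, adjusted p = 0.996). It was the 1 pathway probe set with an unadjusted p under 0.05 there, beside 941 of all 27061.

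The differences of the 6 caspases were recomputed under 18 other settings of pseudocount, filter, scaling, variance model, probe set choice, replicate block or arrays. Casp6 remained above 0 in each, from 0.30 with median centring to 0.53 with the mean of its probe sets. Casp4 ran from 0.07 without necdin null replicate 2 to 0.32 without necdin null replicate 1, and Casp8 from 0.02 without wild type replicate 2 to 0.38 without wild type replicate 1. With median centring Casp4 was 0.11 and Casp8 0.12. The sign of Casp1, Casp2 and Casp9 turned when a single array was left out, as given with each gene, and under no change of scaling.

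**Figure D5:**
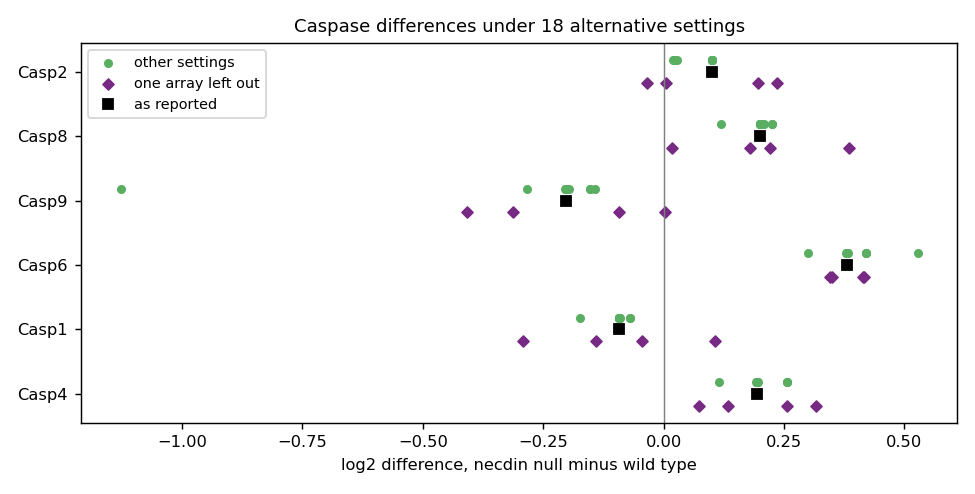
Log2 difference, necdin null minus wild type, of each caspase gene as reported (black square), under 14 other settings (green points) and with 1 array left out (purple diamonds). Casp6 stays between 0.30 and 0.53, while Casp1, Casp2 and Casp9 cross 0 when 1 array is left out.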

How the data were processed

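RNA from 2 necdin null and 2 wild type samples was measured on 4 Affymetrix 3' arrays of 45101 probe sets. The deposited intensity values are MAS5 signals on a linear scale per the submitters' processing notes, with no version given in the sources used here, and their mean after trimming 2% at each end is 500.004 on every array. Detection calls were not used. The number of arrays limits the precision.

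The 34958 probe sets with 1 symbol in the platform annotation were named (932 had several, 9211 none). Values were analysed as log2(signal + 3.80), the pseudocount being the 10th percentile, so differences of dim genes are understated. Genes were tested if their main probe set was at or above the 40th percentile of mean log2 values. The test was limma 3.58.1 in R 4.3.3 (lmFit, eBayes with trend, two-sided, Benjamini-Hochberg over 12680 genes). On arrays simulated with independent noise, the only condition set was that known differences be recovered on average. No condition was set there on the calls. The members and lists were chosen with earlier results of these data known. Named genes were the members, other caspases, the 2 of smallest p in each pathway list, direct partners of members, the nearest profiles and Ndn, with marker genes named by list and defining or dim ones singly. Xist and Eif2s3y describe the arrays. Flt3, Xiap, Ripk3, Mlkl, Cxcr2, S100a8 and the primary granule genes were named after their values were seen. Of the alternatives, 16 were planned and 2 added after seeing the data. Promoter sequences are from RefSeq.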

Additional observations from a re-analysis of the deposited data

How the results depend on the processing

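Of the 6 caspases, Casp4, Casp6 and Casp8 kept their direction under all 18 alternatives, and no caspase passed the threshold under any of them. Leaving out 1 array, where the remaining array of that group borrows the spread of the others, gave 0.35 to 0.42 for Casp6, 0.07 to 0.32 for Casp4 and 0.02 to 0.38 for Casp8. It gave -0.29 to 0.11 for Casp1, turned at 0.11 without wild type replicate 2, -0.034 to 0.24 for Casp2, turned at -0.034 without wild type replicate 2, and -0.41 to 0.0022 for Casp9, turned at 0.0022 without necdin null replicate 1. The other 14 alternatives gave 0.30 to 0.53 for Casp6, 0.11 to 0.26 for Casp4, 0.12 to 0.22 for Casp8, 0.02 to 0.10 for Casp2, -0.17 to -0.07 for Casp1 and -1.13 to -0.14 for Casp9. The -1.13 is the mean of all Casp9 probe sets, 2 of which lie below the filter, so it is no estimate of the gene's difference. The unadjusted p of Casp6 was 0.052 at the lowest, with quantile normalization and the replicate block, and its adjusted p ran from 0.88 to 1.00. The count of genes called, 0, became 3 with the replicate number as a block (675 at an unadjusted p under 0.05), 0 with quantile normalization as well, and 0 to 4 with 1 array left out: 3 if necdin null replicate 1 was left out, 2 if it was wild type replicate 1, and 4 if it was wild type replicate 2. None of these was a caspase or a pathway gene, but Xist and Eif2s3y, uneven over the arrays as given above, were among those called with an array left out. The cause of these changes was not tested. Deviations of arrays of the same number correlated at 0.11 across genes, with only 2 pairs, so the number was not taken to pair the samples. The block left the call of every caspase as it was, with an unadjusted limma p of 0.054 for Casp6. The low signal of Casp9 probe set 1426125_a_at limits what its values can show.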
